A study of Mus musculus with 13 samples.

Results

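The claudins described here were 10 genes, Cldn1, Cldn2, Cldn3, Cldn4, Cldn5, Cldn7, Cldn8, Cldn10, Cldn12 and Cldn18, taken by symbol from the 20270 genes of the tables. The set was picked because Cldn2 rose with bleomycin and fell furthest in the knockout, so the changes of Cldn2 are given as a description without a test. Another 17 claudin and claudin-domain genes in the tables were not members.

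Bulk RNA from the lower right lung lobe was sequenced from 13 mice. The 4 control mice, also wild type, received the saline vehicle through the oropharynx, the 5 wild-type mice treated with bleomycin (WT bleo) received 1 U/kg by the same route, and the 4 mice lacking the cannabinoid receptor CB1R (CB1R KO bleo) received the same dose. Lungs of the bleomycin-treated mice were taken on day 14, and the day for the control mice is not given in the sources used here. Bleomycin is a DNA-damaging drug that injures the alveoli and leaves fibrosis. The wild-type mice were 13-week-old C57BL/6J males that had been purchased, while the knockouts were Cnr1-/- mice on the C57BL/6J background, deleted in every cell. Their age, their sex and whether they were littermates of the wild types are not given in the sources used here. Vehicle-treated knockouts were not analysed here. A difference between CB1R KO bleo and WT bleo lungs therefore cannot be told apart from one that the genotypes had before treatment.

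Claudins are membrane proteins with 4 passes through the lipid bilayer, and their strands seal the tight junctions between neighbouring epithelial or endothelial cells. Most tighten the paracellular route, whereas a few, among them claudin-2, form pores for small cations and water. In the lung, claudin-18, claudin-3 and claudin-4 are the main claudins of alveolar epithelium, and claudin-5 is the claudin of vascular endothelium. In bulk tissue, fewer cells of a type and less RNA per cell cannot be told apart.

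The 13 libraries held 14615904 to 16662580 estimated counts in 12 cases and 53463884 in CB1R KO 11. That library also had the lowest mitochondrial share, 1.37% against 2.15 to 3.45% in the others. Cnr1, the gene of CB1R, had 69, 27, 45 and 32 counts in control 3, 21, 24 and 26. It had 110, 92, 104.7, 50 and 100 in WT 4, 2, 5, 4-B2 and 7, and 86, 41, 74.1 and 188.1 in the libraries labelled CB1R KO 8, 9, 10 and 11. Reads of Cnr1 were thus counted in every library, and the tables do not tell which part of the gene they came from, so these counts did not check the genotype. The genotype is used below as labelled. Of the lists that mark cell types, every gene was detected in at least 1 library.

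In TPM, read counts scaled to transcript length and library size, which allow genes to be compared per length, the claudin pool of the control lung was dominated by Cldn5 and Cldn18. Their mean levels were 528 and 357 TPM, followed by Cldn3 with 150 and Cldn7 with 56.6. Cldn10 and Cldn12 had 15.1 and 14.4 TPM and their libraries overlapped. Cldn4 and Cldn1 also overlapped, at 6.30 and 5.96 TPM. Cldn8 had 2.27 TPM and Cldn2 was last with 0.701. Every other pair of neighbours in this order was separated without overlap.

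After bleomycin the order of levels was different in its middle and lower ranks. Cldn5 and Cldn18 became neighbours that overlapped, with 397 and 388 TPM in WT bleo and 462 and 438 TPM in CB1R KO bleo. Cldn4 moved from rank 7 to rank 5, with 61.1 TPM in WT bleo, where it overlapped with Cldn7 at 67.7 TPM, and 33.8 TPM in CB1R KO bleo, where all libraries lay below those of Cldn7 at 68.6 TPM. Cldn2, with 4.26 TPM in WT bleo, overlapped with Cldn1 at 4.65 TPM and lay above Cldn8 at 1.66 TPM. It was again last in CB1R KO bleo, with 1.51 TPM, and overlapped with Cldn8 at 2.27 TPM.

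The sum over the 10 claudins varied less than its make-up. It was 1136 ± 75.7 TPM in control (SD, n = 4), 1091 ± 65.3 in WT bleo (n = 5) and 1186 ± 108 in CB1R KO bleo (n = 4), with overlapping libraries. The share of Cldn5 in this sum was 46.2 ± 5.84% in control, 36.5 ± 1.60% in WT bleo and 38.9 ± 2.53% in CB1R KO bleo. The share of Cldn4 was 0.557 ± 0.101%, 5.59 ± 1.24% and 2.90 ± 0.8293% in the same order. Cldn2 made up 0.0628 ± 0.0510%, 0.388 ± 0.141% and 0.129 ± 0.0427%. Cldn2 therefore remained a minor transcript of the pool in every group, including the one in which it was highest. The 10 members held 95.2 to 96.3% of the TPM of all 27 claudin and claudin-domain genes.

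**Figure D1:**
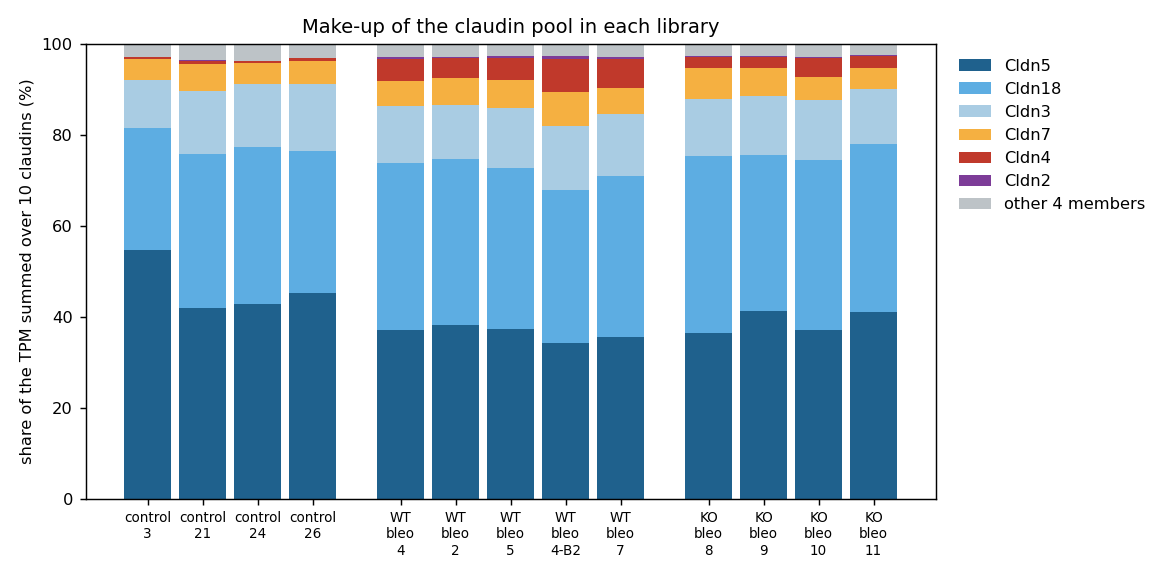
Share (%) of each claudin in the TPM summed over the 10 members, with 1 stacked bar per library. The red segment, Cldn4, averaged 0.557% in control, 5.59% in WT bleo and 2.90% in CB1R KO bleo, and the dark blue segment, Cldn5, was largest in control 3 with 54.7%.

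The comparison of WT bleo with control addressed what the injury did to lung transcripts. Among the 9 members other than Cldn2, 2 rose (Cldn4, Cldn7), 2 fell (Cldn5, Cldn10) and 5 did not pass the test of edgeR at an adjusted p of 0.05. Of all 15315 genes tested, 48.9% passed in this comparison, 25.0% higher and 23.9% lower, so the share of members called was close to the background. The median log2 fold change of the 9 members was -0.11, against -0.01 over all genes. What set the members apart from each other was size, since Cldn4 changed by over 3 on the log2 scale and the other 8 by less than 1.

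Lungs labelled CB1R KO bleo were next compared with those of WT bleo. Of the 9 members, 0 were higher and 1, Cldn4, was lower. The background was 0.979% of genes, 0.359% higher and 0.620% lower, and the median log2 fold change of the members was 0.04. Single libraries moved this background of 150 genes: it was 2, 3 and 9 without CB1R KO 9, 11 and 8, and 24, 27, 34 and 62 without WT 5, 4-B2, 7 and 2. It was 76 without control 24, 227 without WT 4 and 659 without CB1R KO 10. In CB1R KO bleo against control, 1 member was higher (Cldn4) and 1 was lower (Cldn10), with 35.4% of all genes called, 19.0% higher and 16.3% lower. Each group enters 2 of the 3 comparisons, so they are not independent of each other.

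**Figure D2:**
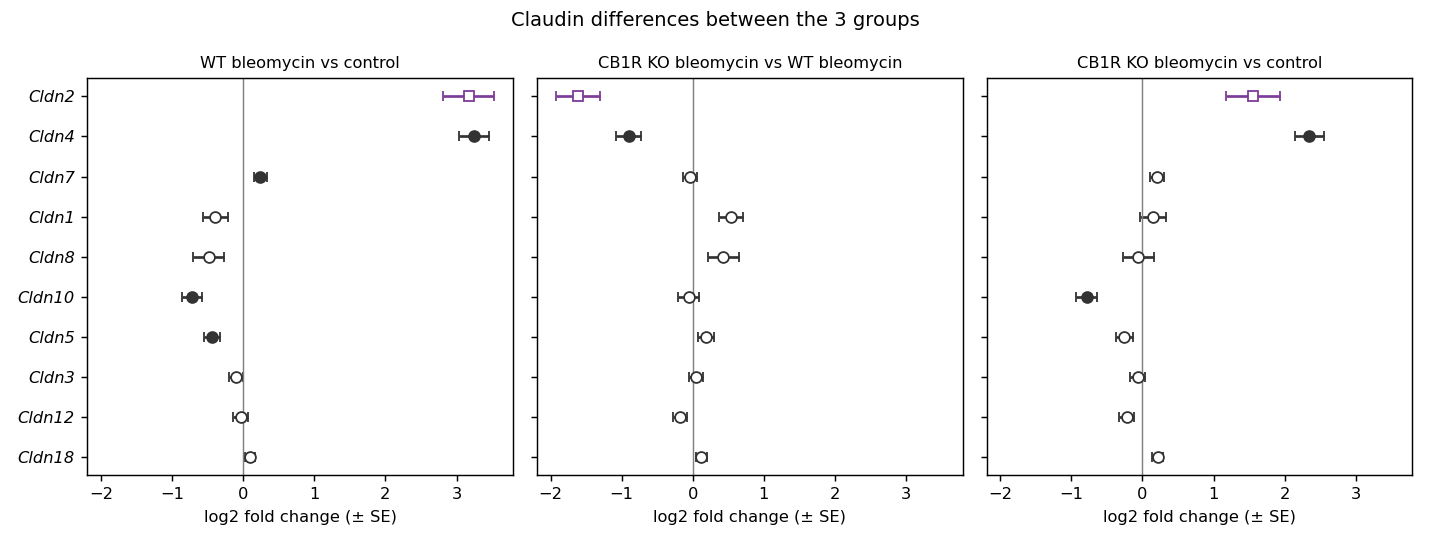
Log2 fold change with its standard error for the 10 claudins in the 3 comparisons, from the fit across 15315 genes. Filled circles passed an adjusted p of 0.05, open circles did not, and the open squares mark Cldn2, which was not tested. In the middle panel Cldn2 lies at -1.61 and Cldn4 at -0.90, and the other 8 lie between -0.18 and 0.54.

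Cldn2, the cation and water pore of leaky epithelia, is compared between libraries in CPM, counts scaled to library size alone. Its levels were 0.594, 1.26, 0.320 and 0.966 CPM in control 3, 21, 24 and 26, from 10, 21, 5 and 15 counts. They were 5.00, 5.74, 5.62, 12.0 and 7.41 CPM in WT 4, 2, 5, 4-B2 and 7, from 79, 93, 90, 173 and 120 counts. In CB1R KO 8, 9, 10 and 11 they were 2.09, 2.17, 3.04 and 2.09 CPM, from 32, 36, 49 and 113 counts. The 3 groups did not overlap, WT 4-B2 was the highest of all libraries and every CB1R KO library lay between the highest control and the lowest WT bleo library. The means were 0.786 ± 0.413, 7.15 ± 2.84 and 2.35 ± 0.465 CPM (SD).

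The log2 fold change of Cldn2 was 3.17 (SE 0.36) in WT bleo against control, -1.61 (SE 0.31) in CB1R KO bleo against WT bleo and 1.56 (SE 0.38) in CB1R KO bleo against control. These are the values the set was chosen on. The sample labels were written in 2 styles, and both capitalised WT bleo libraries, 4-B2 and 7, had the highest Cldn2. The 3 lower-case WT bleo libraries had a mean of 5.46 CPM with a range of 5.00 to 5.74, which lies above every CB1R KO library, all of which were lower-case. The ratio of TPM to CPM of Cldn2 ranged from 0.491 to 1.11 between libraries, a 2.27-fold range, while it varied 1.104-fold for Cldn3 and 1.103-fold for Cldn4. This ratio moves with the length of the transcripts to which reads were assigned. The mean of WT bleo over that of control was 6.08 in TPM and 9.10 in CPM. In TPM the CB1R KO libraries, at 1.07 to 2.14, overlapped with control, at 0.157 to 1.27, so that separation of Cldn2 held in CPM alone.

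Cldn4 is an epithelial claudin that tightens the paracellular route and is also known as a transcript of alveolar cells in transition after injury. It had 6.95, 8.65, 5.76 and 7.86 CPM in control 3, 21, 24 and 26. It had 57.7, 50.04, 65.4, 98.9 and 75.2 CPM in WT 4, 2, 5, 4-B2 and 7. In CB1R KO 8, 9, 10 and 11 it had 33.2, 31.8, 46.6 and 37.1 CPM. All groups were again separated, and the library with the highest Cldn2 in each bleomycin group, WT 4-B2 and CB1R KO 10, also had the highest Cldn4.

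WT bleo exceeded control in Cldn4 by 3.25 on the log2 scale (SE 0.20, edgeR, Benjamini-Hochberg adjusted p = 6.9e-08). It was 2.35 (SE 0.21) in CB1R KO bleo against control (edgeR adjusted p = 2.64e-06). Both passed in all 24 alternative settings. Between CB1R KO bleo and WT bleo it was -0.90 (SE 0.18, edgeR adjusted p = 0.0315), and 4 of 4 CB1R KO libraries lay below all WT bleo libraries. This call passed in 15 of 24 alternatives, with adjusted p from 0.000176 to 0.178. Leaving out WT 5, 4-B2 or 7 gave an adjusted p of 0.0627, 0.066 and 0.0798, and leaving out CB1R KO 8, 9 or 11 gave 0.115, 0.12 and 0.0833. With the label style as a term the log2 fold change was -0.69 (adjusted p = 0.0875), and with lower-case libraries alone it was -0.64 (adjusted p = 0.178). The 3 lower-case WT bleo libraries had 50.04 to 65.4 CPM and still lay above every CB1R KO library.

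**Figure D3:**
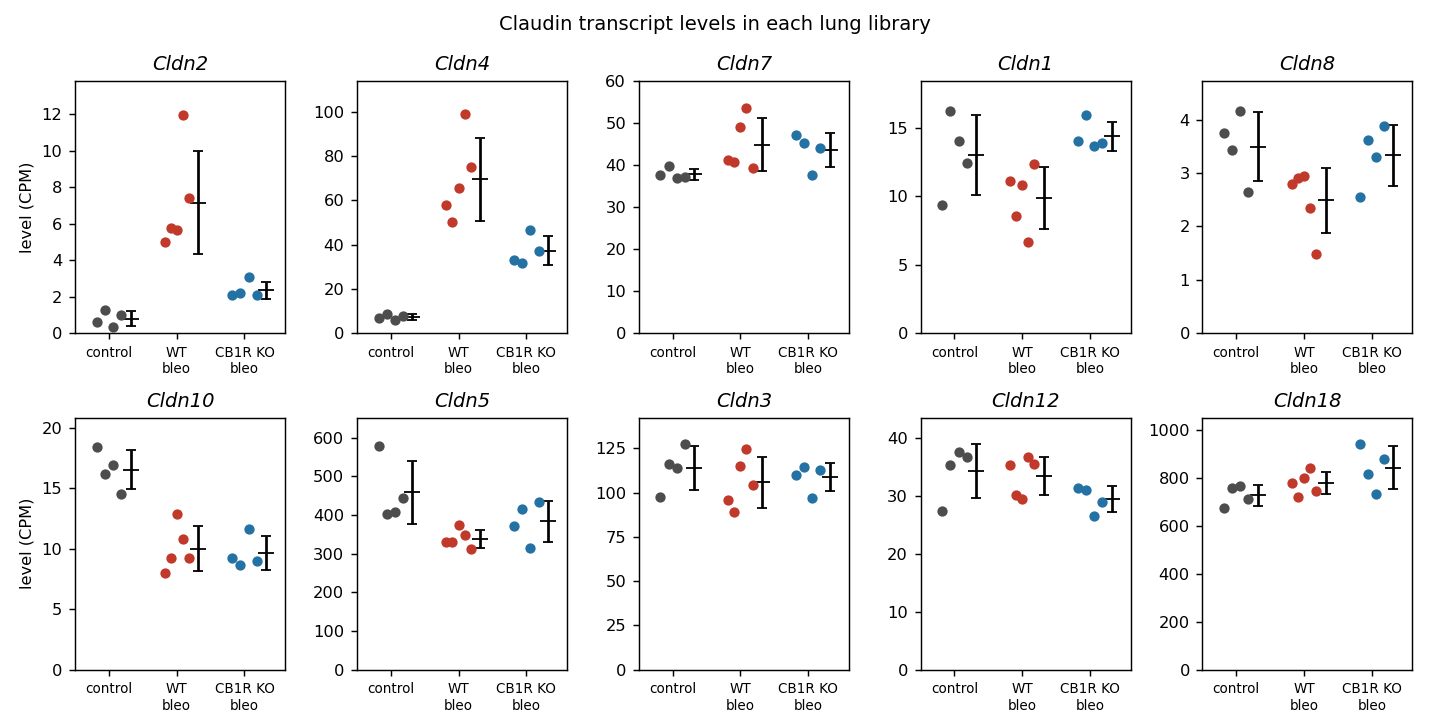
Level of each claudin in CPM (vertical axes, each from 0) in every library of control (grey), WT bleo (red) and CB1R KO bleo (blue), with the mean and SD beside the points. The 3 groups are separated for Cldn2 and Cldn4, while Cldn10 and Cldn5 lie lower in all WT bleo libraries than in any control.

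Over the 13 libraries, Cldn2 and Cldn4 had a Pearson r of 0.953 on the log2 scale, and 0.860 after each group was centred on its mean. Centred on the groups, no other pair that held Cldn2 or Cldn4 exceeded 0.463. The points share libraries and groups, so r is given as a description without a test. Both genes were separated in CPM in all 3 comparisons, for Cldn2 on the values that chose the set. How many of all genes tested separate in this way was not counted. The promoters of Cldn2 and Cldn4 are printed here. That of Cldn3, the next protein-coding gene to Cldn4 on chromosome 5, is printed beside them. The sequences are the 250 bases before the RefSeq transcription start, 5′ to 3′ on the strand of the gene, in GRCm38.p6, which is an earlier build than the GRCm39 of the count tables. Cldn2 is chrX:139800558-139800807 (+), Cldn4 is chr5:134946935-134947184 (-) and Cldn3 is chr5:134985964-134986213 (+).
Cldn2: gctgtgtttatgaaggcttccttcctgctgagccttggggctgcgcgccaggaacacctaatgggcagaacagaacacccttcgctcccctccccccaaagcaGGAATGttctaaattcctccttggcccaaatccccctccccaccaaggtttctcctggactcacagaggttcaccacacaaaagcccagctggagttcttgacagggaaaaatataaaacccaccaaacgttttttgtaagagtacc
Cldn4: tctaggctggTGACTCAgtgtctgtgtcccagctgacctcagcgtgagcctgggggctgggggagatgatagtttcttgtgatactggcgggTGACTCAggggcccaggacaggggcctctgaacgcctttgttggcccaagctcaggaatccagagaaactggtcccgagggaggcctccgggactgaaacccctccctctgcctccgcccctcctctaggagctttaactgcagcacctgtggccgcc
Cldn3: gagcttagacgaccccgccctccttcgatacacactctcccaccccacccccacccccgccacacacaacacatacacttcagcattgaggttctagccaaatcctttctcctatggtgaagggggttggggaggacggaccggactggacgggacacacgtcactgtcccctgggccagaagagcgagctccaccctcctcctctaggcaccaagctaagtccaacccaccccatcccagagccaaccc
Capitals mark matches on either strand to 3 motifs, TGANTCA of AP-1, GGAATG of TEAD and AACCNG of grainyhead-like factors. Cldn4 held 2 AP-1 matches, starting at positions -240 and -158 counted from the start, Cldn2 held 1 TEAD match at -147, and Cldn3 held none of the 3. Of 32851 RefSeq windows of this length, 6.75% held the AP-1 motif, 12.6% the TEAD motif and 33.9% the grainyhead-like motif. The 9 members other than Cldn8 had 14 windows between them, and 1 of the 14, that of Cldn4, held an AP-1 match. Windows of Cldn5, Cldn7, Cldn12 and Cldn18 held the grainyhead-like motif, and Cldn7 also held the TEAD motif. The motifs were chosen with the changes of Cldn2 and Cldn4 known, and a match is a description of these letters, not a bound site.

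Cldn3, which shares with claudin-4 the role of receptor for a clostridial enterotoxin, had 97.7, 116, 114 and 127 CPM in control 3, 21, 24 and 26. It had 95.5, 89.1, 115, 125 and 104 CPM in WT 4, 2, 5, 4-B2 and 7, and 110, 115, 97.2 and 113 CPM in CB1R KO 8, 9, 10 and 11. The groups overlapped, with a log2 fold change of -0.11 (SE 0.10) for WT bleo against control (edgeR adjusted p = 0.396) and 0.04 (SE 0.10) for CB1R KO bleo against WT bleo (edgeR adjusted p = 0.872). The ratio of Cldn4 to Cldn3 in TPM was 0.0422 ± 0.00700 in control, 0.426 ± 0.0667 in WT bleo and 0.228 ± 0.0593 in CB1R KO bleo.

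Genes listed as markers of transitional alveolar cells moved with Cldn4 and Cldn2, and their part in these results was not tested. Of 7 markers, 6 rose in WT bleo, against 25.0% of all genes higher and 23.9% lower, shares that apply to each list below in this comparison, with a median log2 fold change of 0.89, and their summed level was 600 to 648 TPM in control, 980 to 1254 in WT bleo and 924 to 1033 in CB1R KO bleo. Krt8, a simple-epithelium keratin, changed by 0.87 (SE 0.10), and Sfn, the cell-cycle protein 14-3-3 sigma, by 2.03 (SE 0.19). Between CB1R KO bleo and WT bleo 0 of 7 were called. Of all genes 0.359% were higher and 0.620% lower there, shares that apply to each list below in this comparison. The median of the 7 was -0.24, with values of -0.24 for Krt8 (edgeR adjusted p = 0.222) and -0.52 for Sfn (edgeR adjusted p = 0.158). All 7 differences were negative, from -0.52 to -0.11. Pan-epithelial genes were 4 higher and 1 lower of 8 in WT bleo, with a median of 0.17 and a summed level of 397 to 435 TPM in control, 415 to 457 in WT bleo and 397 to 494 in CB1R KO bleo. In WT bleo against control single transitional markers changed by 0.22 to 2.18 on the log2 scale, single pan-epithelial genes by -0.32 to 0.57 and Cldn4 by 3.25.

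Cldn5, the endothelial claudin, had 579, 403, 408 and 444 CPM in control 3, 21, 24 and 26. It had 329, 329, 373, 347 and 312 CPM in WT 4, 2, 5, 4-B2 and 7, and 371, 416, 315 and 435 CPM in CB1R KO 8, 9, 10 and 11. All WT bleo libraries lay below all controls, of which control 3 was the highest, while the CB1R KO libraries spanned both groups. Its log2 fold change was -0.44 (SE 0.11) in WT bleo against control (edgeR adjusted p = 0.00494), and it passed in all 24 alternatives. It was 0.18 (SE 0.11, edgeR adjusted p = 0.431) in CB1R KO bleo against WT bleo and -0.26 (SE 0.12, edgeR adjusted p = 0.108) in CB1R KO bleo against control.

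Endothelial markers moved with Cldn5 in WT bleo, and their part in its change was not tested. In WT bleo 10 of 12 were lower and 1, Vwf, was higher, with a median of -0.55. Their summed level was 3386 to 3688 TPM in control, 2180 to 2568 in WT bleo and 2608 to 2830 in CB1R KO bleo, without overlap. Pecam1, the endothelial adhesion molecule CD31, changed by -0.50 (SE 0.07) and Cdh5, the endothelial cadherin, by -0.48 (SE 0.10). The 12 markers ranged from -1.34 to 0.55. Between CB1R KO bleo and WT bleo 1 of 12 was called, Tek, which was higher by 0.29 on the log2 scale (edgeR adjusted p = 0.0391). With single libraries left out 0 to 3 of 12 were called, and 0 in 8 of 13 such fits: without control 21 or 24, WT 5, 4-B2 or 7, and CB1R KO 8, 9 or 11. The count was 2 without WT 4 and 3 without CB1R KO 10, fits in which 227 and 659 of all genes were called. Against control, 9 of 12 markers were lower and 1 was higher in CB1R KO bleo, with a median of -0.40, whereas Cldn5 did not pass there. Of all genes, 16.3% were lower and 19.0% higher in that comparison.

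Cldn18, whose lung isoform seals the alveolar epithelium, had 675, 756, 767 and 710 CPM in control 3, 21, 24 and 26. It had 777, 722, 800, 840 and 747 CPM in WT 4, 2, 5, 4-B2 and 7, and 942, 816, 733 and 880 CPM in CB1R KO 8, 9, 10 and 11. The groups overlapped in every comparison. On the log2 scale the fold change was 0.10 (SE 0.08) for WT bleo against control (edgeR adjusted p = 0.320), 0.12 (SE 0.08) for CB1R KO bleo against WT bleo (edgeR adjusted p = 0.462) and 0.21 (SE 0.08) for CB1R KO bleo against control (edgeR adjusted p = 0.0531). The last passed in 5 of 24 alternatives, among them DESeq2 (adjusted p = 0.0339), limma on TPM and the fit without CB1R KO 10 (adjusted p = 0.0165).

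Type I cells, which cover most of the alveolar surface, and type II cells, which make surfactant, gave lists whose summed levels had another pattern than Cldn18. Of 8 type I markers 2 rose and 3 fell in WT bleo, with a median of -0.19 and a summed level of 4298 to 4591 TPM in control, 3367 to 3844 in WT bleo and 3463 to 4726 in CB1R KO bleo. Of 9 type II markers 6 fell and 1 rose, with a median of -0.51 and a summed level of 32738 to 38285, 20159 to 23941 and 25062 to 38977 TPM. In CB1R KO bleo against WT bleo 3 of 9 type II markers were higher, against 0.359% of all genes, with a median of 0.41. Of 8 type I markers 0 were called, with a median of 0.18. The type II count was 0 without WT 5, 4-B2 or 7 or CB1R KO 8, 9 or 11, 1 without control 24 or WT 2, 2 without control 21, and 8 without CB1R KO 10. In the fit without CB1R KO 10, 659 of all genes were called. The mean of Cldn18 was 777 CPM in WT bleo and 727 in control, while both summed levels were lower in every WT bleo library than in any control. In control Ager made up 2210 of the mean type I sum of 4428 TPM and Sftpc 27907 of the type II sum of 36639. Single markers went both ways in WT bleo, from -0.97 to 0.63 for type I and from -1.16 to 0.30 for type II.

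Cldn10, an ion-selective claudin with 2 main isoforms that is also used as a marker of club cells, had 18.4, 16.2, 17.0 and 14.6 CPM in control 3, 21, 24 and 26. It had 7.98, 9.20, 12.9, 10.8 and 9.26 CPM in WT 4, 2, 5, 4-B2 and 7. Its levels were 9.22, 8.62, 11.7 and 9.01 CPM in CB1R KO 8, 9, 10 and 11. Every bleomycin library lay below every control, and both bleomycin groups overlapped. The log2 fold change was -0.72 (SE 0.14) in WT bleo against control (edgeR adjusted p = 0.000616), -0.78 (SE 0.15) in CB1R KO bleo against control (edgeR adjusted p = 0.000953) and -0.06 (SE 0.14) between them (edgeR adjusted p = 0.862). Both calls against control passed in all 24 alternatives.

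Most markers of club cells, the secretory cells of small airways, fell in WT bleo as Cldn10 did, and their part in its change was not tested. Of 7, 4 fell and 1 rose in WT bleo, with a median of -0.66. The summed level was 87490 to 100880 TPM in control, 41641 to 62090 in WT bleo and 38968 to 49881 in CB1R KO bleo. Scgb1a1, their secretoglobin, changed by -0.84 (SE 0.13) and Cyp2f2, a cytochrome P450, by -1.39 (SE 0.09). The marker that rose was Muc5b, by 0.93 (SE 0.32, edgeR adjusted p = 0.0256). Scgb1a1 made up 85187 of the mean sum of 96116 TPM in control. Between CB1R KO bleo and WT bleo 0 of 7 were called and the median was -0.29, with single markers from -1.41 to 0.39. Of 8 ciliated cell markers 2 fell and 0 rose in WT bleo, with a median of -0.15, and the summed level was 624 to 709 TPM in control, 337 to 438 in WT bleo and 320 to 511 in CB1R KO bleo. Most of this sum was 1 gene, Tppp3, with 522 of a mean of 654 TPM in control and 232 of 363 in WT bleo. Foxj1 changed by 0.13 (SE 0.13) and was not called.

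Cldn7, a claudin that binds the adhesion molecule EpCAM, had 37.7, 39.8, 36.9 and 37.1 CPM in control 3, 21, 24 and 26. It had 41.2, 40.7, 49.2, 53.8 and 39.4 CPM in WT 4, 2, 5, 4-B2 and 7, and 47.2, 45.4, 37.8 and 44.1 CPM in CB1R KO 8, 9, 10 and 11. WT bleo was higher than control by 0.24 (SE 0.10) on the log2 scale (edgeR adjusted p = 0.0481), and 4 of 5 WT bleo libraries lay above all controls. This call was lost in 18 of 24 alternatives. Leaving out any 1 of control 3, 21, 24 and 26, WT 5 and 4-B2, or CB1R KO 8, 9 and 11 ended it, and without WT 4-B2 the value was 0.16 (edgeR adjusted p = 0.138). Against WT bleo the CB1R KO libraries differed by -0.04 (SE 0.09, edgeR adjusted p = 0.863).

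Cldn1, a claudin needed for the barrier of the skin, had 9.39, 16.3, 14.0 and 12.4 CPM in control 3, 21, 24 and 26. It had 11.1, 8.59, 10.8, 6.64 and 12.3 CPM in WT 4, 2, 5, 4-B2 and 7, and 14.1, 16.0, 13.7 and 13.9 CPM in CB1R KO 8, 9, 10 and 11. Every CB1R KO library lay above every WT bleo library, the opposite order to Cldn2 and Cldn4, and WT 4-B2 was the lowest. The log2 fold change was 0.54 (SE 0.17), with an unadjusted p of 0.00774 in edgeR and an adjusted p of 0.144, so the difference did not pass, and it passed in 0 of 24 alternatives (adjusted p 0.0636 to 0.354). WT bleo against control gave -0.39 (SE 0.18, edgeR adjusted p = 0.0778).

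Cldn8, a claudin best known from the distal nephron, was near the lower end of detection. It had 3.74, 3.42, 4.16 and 2.64 CPM in control 3, 21, 24 and 26, 2.79, 2.90, 2.94, 2.35 and 1.48 CPM in WT 4, 2, 5, 4-B2 and 7, and 2.55, 3.62, 3.29 and 3.88 CPM in CB1R KO 8, 9, 10 and 11. The counts were 24 to 65 in all libraries but CB1R KO 11, which had 210. The groups overlapped, with -0.49 (SE 0.22, edgeR adjusted p = 0.0802) for WT bleo against control and 0.43 (SE 0.22, edgeR adjusted p = 0.333) for CB1R KO bleo against WT bleo.

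Cldn12, an atypical claudin that lacks the usual PDZ-binding end, had 27.5, 35.4, 37.6 and 36.8 CPM in control 3, 21, 24 and 26. It had 35.3, 30.1, 29.6, 36.7 and 35.5 CPM in WT 4, 2, 5, 4-B2 and 7, and 31.3, 31.1, 26.5 and 29.1 CPM in CB1R KO 8, 9, 10 and 11. The groups overlapped, and the log2 fold changes of -0.04 (SE 0.10, edgeR adjusted p = 0.786) against control and -0.18 (SE 0.10, edgeR adjusted p = 0.377) for CB1R KO bleo against WT bleo did not pass. The counts of Cldn12 were not whole, by more than 0.01, in 11 of 13 libraries and those of Cldn1 in 12, and in 5 for Cldn18. Such sums arise where reads were divided between transcripts that were not all summed into the gene.

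Of the claudins outside the set, 5 of 17 passed the filter on low counts. Cldn6, an embryonic claudin that adult tissue scarcely expresses, had 2, 5, 2 and 1 counts in control 3, 21, 24 and 26, and 19, 22, 38, 21 and 37 in WT 4, 2, 5, 4-B2 and 7. It had 11, 10, 26 and 49 counts in CB1R KO 8, 9, 10 and 11. Every bleomycin library lay above every control in CPM, at 1.20 to 2.38 CPM in WT bleo and 0.603 to 1.62 in CB1R KO bleo. The log2 fold change was 3.44 (SE 0.46, edgeR adjusted p = 2.96e-05) in WT bleo against control and -0.86 (SE 0.34, edgeR adjusted p = 0.215) in CB1R KO bleo against WT bleo, where the groups overlapped. Cldn15, Cldn23 and Cldn34c1 fell in WT bleo by 0.50, 0.93 and 0.47 on the log2 scale (edgeR adjusted p = 0.0225, 0.00232 and 0.0278), and the claudin-domain gene Cldnd1 had -0.11 (edgeR adjusted p = 0.146). None of the 5 was called by edgeR between CB1R KO bleo and WT bleo, where 1 had an unadjusted p under 0.05.

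Claudin strands are held by other junction proteins, which were listed by role. Of 41 genes listed, 40 were in the tables and all of these were tested. In WT bleo against control 10 of 40 rose, 19 fell and 11 did not pass, with a median of -0.14, against 25.0% of all genes higher and 23.9% lower. CB1R KO bleo against control gave 7 higher and 11 lower, against 19.0% and 16.3% of all genes. Between CB1R KO bleo and WT bleo edgeR called 0 of 40, with 6 at an unadjusted p under 0.05, and DESeq2 called 2. That count was 1 without control 3, control 21 or WT 4, and 3 without CB1R KO 10.

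Scaffold and polarity proteins, which tie the strands to actin, were the group in which most members fell. In WT bleo 14 of 20 fell and 1 rose, against 23.9% of all genes lower, with a median of -0.29, and the summed level was 827 to 936 TPM in control and 797 to 842 in WT bleo. Tjp1, the scaffold ZO-1, fell by 0.47 on the log2 scale (SE 0.08, edgeR adjusted p = 0.000146). Magi2, a scaffold with several PDZ domains, fell by 0.85 (SE 0.16, edgeR adjusted p = 0.000604) and Prkcz, an atypical protein kinase C, by 0.56 (SE 0.08, edgeR adjusted p = 4.18e-05). In CB1R KO bleo against control 11 of 20 were lower and 1 was higher, with Magi2 at -0.68, Amotl2, an angiomotin, at -0.48, Prkcz at -0.46 and Pard6b, of the Par complex, at -0.43.

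The other membrane proteins of the junction moved in both directions. Of 14, 5 rose and 4 fell in WT bleo, with a median of 0.09. Ildr2, an angulin of the corners where cells meet, changed by 2.38 (SE 0.13, edgeR adjusted p = 3.52e-08) in WT bleo and by 1.84 (SE 0.14) in CB1R KO bleo, both against control. Its level was 1.78 to 3.06 TPM in control, 11.7 to 14.0 in WT bleo and 6.93 to 10.3 in CB1R KO bleo, without overlap. Between the bleomycin groups its log2 fold change was -0.54 (SE 0.12, edgeR adjusted p = 0.05004), which did not pass. Bves, an adhesion protein also abundant in muscle, fell by 1.36 (SE 0.44, edgeR adjusted p = 0.0188). Its level was low and the groups overlapped, with 0.429 to 1.38 TPM in control and 0.118 to 0.653 in WT bleo.

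Of 6 membrane partners that bind claudins or cleave their partners, 4 rose and 1 fell in WT bleo, with a median of 0.44. St14, the protease matriptase, rose by 0.75 (SE 0.07, edgeR adjusted p = 1.65e-06) and Spint1, an inhibitor of matriptase, by 0.57 (SE 0.12, edgeR adjusted p = 0.00156). In CB1R KO bleo against control these were 0.63 and 0.55.

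**Figure D4:**
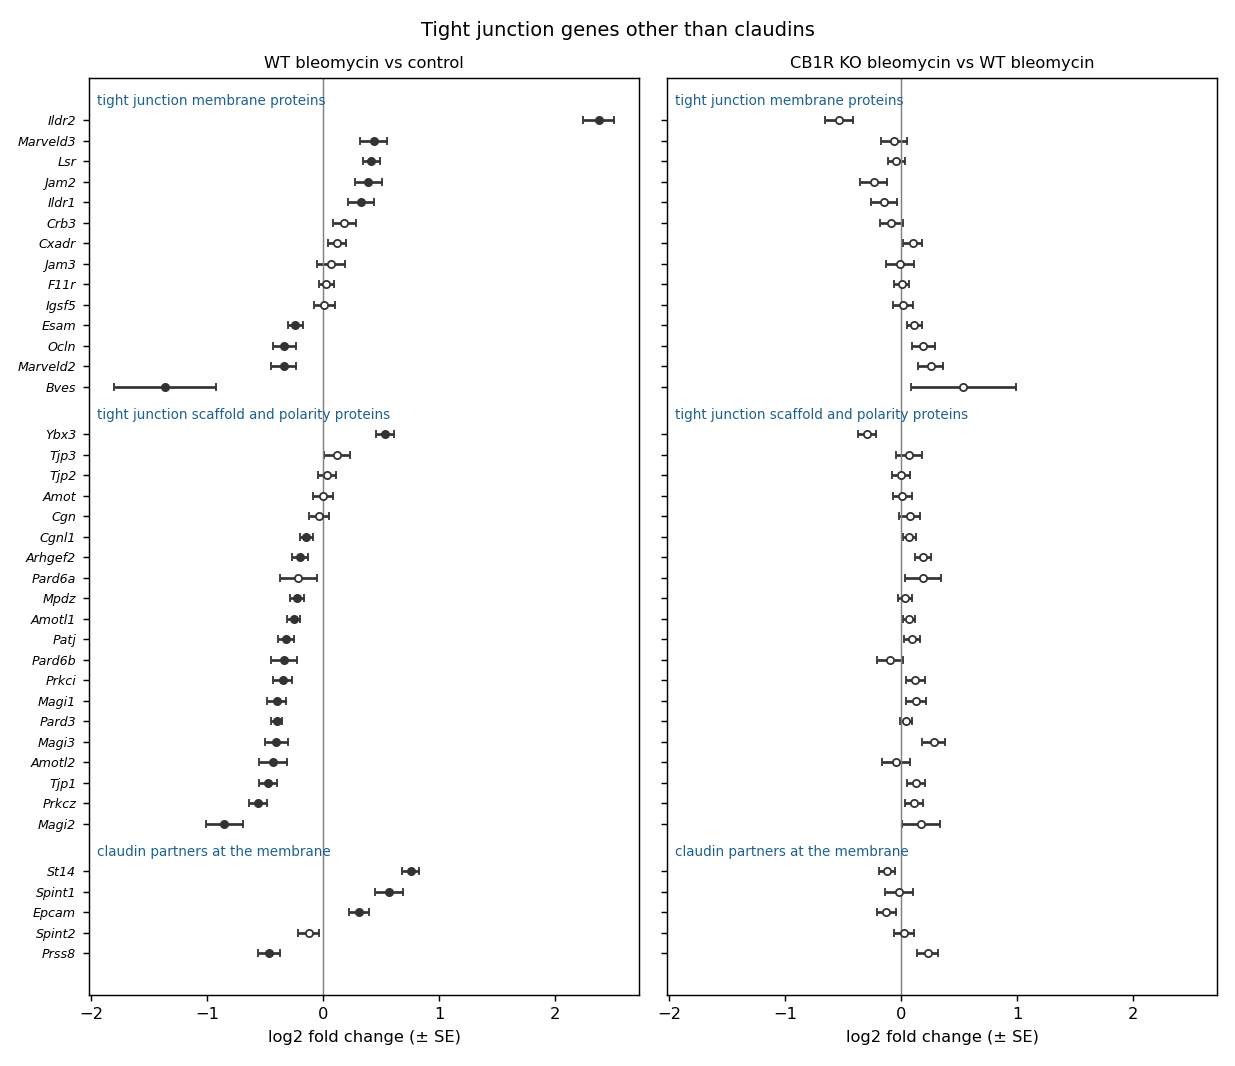
Log2 fold change with its standard error for 39 of the 40 tight junction genes other than claudins, grouped by role, in WT bleo against control (left) and CB1R KO bleo against WT bleo (right). Filled points passed an adjusted p of 0.05, and 14 of 20 scaffold and polarity genes are filled on the left below 0 while none is filled on the right.

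The genes whose log2 CPM was most like that of Cldn2 over the 13 libraries were Itgb4, an epithelial integrin, and Inhba, a subunit of activin, both with a Pearson r of 0.974. Ssr4, of the endoplasmic reticulum translocon, and Elob, elongin B, both had 0.971, and Tgfbi, a matrix protein, had 0.969. After centring on the groups, r was 0.762 to 0.817 for these 5. For Cldn4 they were Clcn5, a chloride-proton exchanger, with 0.995, Cd14, a receptor for bacterial lipopolysaccharide, with 0.993, and Sh3pxd2b, an adaptor of podosomes, with 0.990. For Cldn5 they were Hip1r, Cyhr1 and Acss2 with 0.952, 0.943 and 0.929. For Cldn18 they were Hs2st1, Aqp5 and Serinc5 with 0.926, 0.889 and 0.872, of which Aqp5 is the water channel of type I cells. Centred on the groups, r was 0.882, 0.884 and 0.685 for Clcn5, Cd14 and Sh3pxd2b. It was 0.903, 0.889 and 0.883 for Hip1r, Cyhr1 and Acss2, and 0.924, 0.855 and 0.780 for Hs2st1, Aqp5 and Serinc5. These genes were picked as the highest r among all genes tested. The values describe the 13 libraries and carry no test.

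The other cell type lists were as follows in WT bleo against control. Of 4 basal cell genes 1 rose, with a summed level of 0.244 to 2.25 TPM in control and 3.19 to 4.88 in WT bleo. Of 5 mesothelial genes 1 rose and 2 fell, and of 7 fibroblast genes 2 rose and 2 fell. Of 8 macrophage genes 6 rose, with a summed level of 279 to 381 TPM in control, 1146 to 1370 in WT bleo and 828 to 1299 in CB1R KO bleo. Of the lymphocyte lists, 2 of 6 T and NK cell genes and 4 of 4 B cell genes fell, and 3 of 4 neutrophil genes fell. Between CB1R KO bleo and WT bleo the call was 1 higher for T and NK cells (Nkg7) and 0 for the others, and the first was 0 in 9 of 13 fits with a library left out, namely without control 21 or 24, WT 2, 5, 4-B2 or 7, and CB1R KO 8, 9 or 11.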

How the data were processed

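Lung RNA of 13 mice was quantified by the authors with Kallisto on the Ensembl mouse reference (release 105, GRCm39), restricted to protein-coding transcripts and summed per gene symbol. The deposited tables hold estimated counts, which are not normalized, and TPM, which the authors scaled per transcript length and library. The 13 single-sample tables held the same values. Of the TPM columns, 1 matched no sample and was not used.

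Estimated counts were rounded and genes filtered with filterByExpr, leaving 15315. In R 4.3.3 with edgeR 4.0.16, library sizes were scaled by TMM, the 3 groups were fitted without further terms by quasi-likelihood, and p-values were adjusted by Benjamini-Hochberg over these genes. CPM used TMM library sizes. Standard errors were derived from the test statistic. The procedure was tested on simulated data. Of 100 genes changed by 1 on the log2 scale, 81 were called with the right sign in WT bleo against control. The count was 82 in CB1R KO bleo against WT bleo, and smaller changes were not simulated. Among unchanged genes there were 11 and 14 false calls in these comparisons. Samples were grouped by their labels, and p-values measure the spread between mice of a group. Cldn2 and Cldn6 had few counts in control (5 to 21 and 1 to 5).

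The members, gene lists and tests were chosen with earlier results of these data known. The genes named were the 10 members, other claudins passing the filter, the 4 most changed tight junction genes per direction past the threshold, the 5 genes most like Cldn2 and 3 most like Cldn4, Cldn5 and Cldn18 by Pearson r, Cnr1 and up to 3 markers per list. Of the genes this rule selects, 1 is not reported here. Single genes were also named where a count was small, and Ildr2 was described further after its values were seen. Alternatives were RLE and upper-quartile scaling, no filter, at least 10 counts in every library, DESeq2 1.42.0, limma 3.58.1 on log2(TPM + 1) and log2(TPM + 0.1), fits of 2 groups, label style as a term, lower-case labels alone, CB1R KO 11 thinned and each library left out. Promoter windows came from RefSeq tables (GRCm38.p6).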

Additional observations from a re-analysis of the deposited data

Results flagged for a closer look

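In 30 groups, 10 claudins in 3 groups of mice each, 2 single libraries stood apart from the rest of their group by Dixon's criterion at the 95% level, which chance meets in about 1 of 20 groups. Cldn2 in CB1R KO 10 was 3.04 CPM, against 2.09 to 2.17 in the other CB1R KO libraries. Cldn1 in CB1R KO 9 was 16.0 CPM, against 13.7 to 14.1. The values of Cldn2 are among those that chose the set, and the difference of Cldn1 between the bleomycin groups did not pass in the fit with all libraries or in any of its 24 alternatives.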

How the results depend on the processing

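Of 24 alternatives per comparison, the count of members called in CB1R KO bleo against WT bleo was 0 in place of 1 in the 2-group fit, with label style as a term and with lower-case labels alone, and 0 to 1 with each library left out. It was 3 to 5 in WT bleo against control and 2 to 3 in CB1R KO bleo against control. The count of tight junction genes between the bleomycin groups was 1 in place of 0 with RLE, upper quartile, at least 10 counts in every library and CB1R KO 11 thinned, 2 with DESeq2 and 0 to 3 with a library left out. The log2 fold change of Cldn2 was 1.64 and 2.70 in WT bleo against control with limma on log2(TPM + 1) and log2(TPM + 0.1), and -1.03 and 0.60 with the first in the other comparisons. With at least 10 counts in every library Cldn2 was not in the fit. Values near 0 that were not called changed sign: with both limma fits, Cldn12 was 0.0081 and 0.0085 in WT bleo against control. Between the bleomycin groups Cldn7 was 0.0023 and 0.0022 and Cldn10 0.0158 and 0.0189. In CB1R KO bleo against control Cldn3 was 0.0044 in both and Cldn8 0.0057 and 0.0102. With a library left out, Cldn12 ranged from -0.13 to 0.0079 in WT bleo against control, Cldn3 from -0.0163 to 0.11, Cldn7 from -0.0836 to 0.0361 and Cldn10 from -0.16 to 0.0481 between the bleomycin groups, and Cldn8 from -0.17 to 0.0477 in CB1R KO bleo against control. The cause of these changes was not tested. DESeq2 called 640 genes between the bleomycin groups, edgeR 150, the 2-group fit 88, limma on log2(TPM + 0.1) 93, label style as a term 41, lower-case labels alone 6, and fits with a library left out 2 to 659. No paired analysis was possible because the groups share no replicate numbers. In control, Cldn2 had 5 to 21 counts and Cldn6 1 to 5.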
